A study of Mus musculus with 12 samples.

Results

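The insulin-like growth factor (IGF) system was described in mouse lung endothelial cells (MLECs) through 10 genes: the ligands Igf1 and Igf2, the receptors Igf1r and Insr, and the binding proteins Igfbp2 to Igfbp7. The genes were taken by symbol from the 28689 genes of the table, and each had a row of its own. The 12 RNA libraries fell into 6 of CTR and 6 of dKO cells. The dKO mice were VE-CAD-CreERT2+ with floxed Sp1 and Sp3 alleles (Sp1 fl/fl, Sp3 fl/fl), so that Cre acts in cells with an active VE-cadherin promoter. The CTR mice were Cre-negative littermates with the same floxed alleles, although the labels give their genotype as WT. Adult male mice of both groups received tamoxifen. Cells were selected with beads against CD31, grown to confluence, selected again with beads against intercellular adhesion molecule 2 and used at low passage. The extraction text in the labels speaks of retinas, whereas the tissue is labelled lung. The study describes its replicates in general as biologically independent, but the sources do not tie each library to a mouse, so p-values measure the spread between libraries.

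IGF-I and IGF-II are secreted peptides that signal through the IGF1 receptor tyrosine kinase and, with lower affinity or in hybrid receptors, through the insulin receptor. In tissue fluid most IGF is held by the IGF binding proteins, which limit its access to receptors, extend its life and release it when they are cleaved. IGFBP3 and IGFBP5 are large carriers with affinity for matrix, IGFBP6 prefers IGF-II, and IGFBP7 binds IGF weakly and is a matrix protein of the vessel wall. The comparison asks which of these genes change when Sp1 and Sp3, zinc-finger factors that bind GC boxes, are deleted from endothelial cells.

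The sequences just upstream of 4 of these genes are shown because GC boxes are the textbook recognition sequence of Sp1 and Sp3. Each run is the 250 bases before the start of the Ensembl canonical transcript, read 5′ to 3′ on the gene's own strand from the GRCm39 genome with GENCODE starts. Capitals mark GC boxes, searched as GGGCGG or its complement CCGCCC, overlaps allowed. Igfbp3 and Igfbp6 are the members that differed most between the groups, while Igf1r and Igfbp7 hold the most GC boxes. The windows are chr11:7164180-7164429 on the minus strand for Igfbp3, chr15:102052447-102052696 on the plus strand for Igfbp6, chr7:67601268-67601517 on the plus strand for Igf1r and chr5:77555915-77556164 on the minus strand for Igfbp7.
Igfbp3: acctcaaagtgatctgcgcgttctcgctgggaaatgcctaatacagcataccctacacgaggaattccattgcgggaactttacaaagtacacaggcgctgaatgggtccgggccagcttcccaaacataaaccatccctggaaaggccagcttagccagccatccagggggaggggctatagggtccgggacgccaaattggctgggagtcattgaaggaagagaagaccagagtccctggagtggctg
Igfbp6: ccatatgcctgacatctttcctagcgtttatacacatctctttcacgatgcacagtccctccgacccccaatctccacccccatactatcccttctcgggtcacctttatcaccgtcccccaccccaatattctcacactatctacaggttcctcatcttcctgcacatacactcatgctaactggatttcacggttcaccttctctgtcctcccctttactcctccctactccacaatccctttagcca
Igf1r: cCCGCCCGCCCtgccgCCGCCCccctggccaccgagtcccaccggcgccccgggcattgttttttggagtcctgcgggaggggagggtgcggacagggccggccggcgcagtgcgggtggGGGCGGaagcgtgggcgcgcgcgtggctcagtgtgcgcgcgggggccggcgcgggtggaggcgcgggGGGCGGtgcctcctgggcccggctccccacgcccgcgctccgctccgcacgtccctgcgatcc
Igfbp7: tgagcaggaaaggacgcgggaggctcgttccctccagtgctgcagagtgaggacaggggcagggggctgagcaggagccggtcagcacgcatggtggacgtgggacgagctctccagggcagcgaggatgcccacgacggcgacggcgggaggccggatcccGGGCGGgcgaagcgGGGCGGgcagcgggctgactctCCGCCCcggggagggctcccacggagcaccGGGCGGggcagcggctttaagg

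No GC box was found in the windows of Igfbp3 and Igfbp6. The Igf1r window held 5, of which the first 2 share bases, with the nearest starting 63 bases before the transcript start. The Igfbp7 window held 4, starting 88, 74, 52 and 22 bases before the start. Over all 10 members, 4 windows held a GC box (Igf1r, Igfbp7, Igfbp2 with 3 and Igf2 with 2) and 6 held none (Igf1, Insr, Igfbp3, Igfbp4, Igfbp5 and Igfbp6). Among the 17366 protein-coding genes of the table, 43.3% of windows of this length held a GC box. Of the 8 members tested between the groups, 2 held one, against 50.6% of 11315 tested protein-coding genes. A match or its lack describes these letters in this window and says nothing of binding.

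Values are FPKM, in which fragments are divided by gene length and by the size of the library, so levels can be compared between genes. A library held between 15523054 and 17938286 fragments, recovered here from the steps in the FPKM values. Sp1 was lower in each of the 6 dKO libraries (at most 12.1 FPKM) than in each CTR library (at least 19.4 FPKM), and its dKO mean was 49.9% of the CTR mean. Sp3, between 24.2 and 31.1 FPKM in CTR and between 22.5 and 26.9 FPKM in dKO, was below all CTR libraries in 2 of 6. Its dKO mean was 90.1% of the CTR mean, and the difference was not called (log2 fold change −0.14, adjusted p = 0.0902 from limma). The Sp1 and Sp3 values count fragments over all exons of each gene. The cultures held transcripts of several cell types. Pecam1, which encodes CD31, ran from 26.1 to 44.0 FPKM in CTR and reached 71.3 FPKM in dKO, while Col1a1, a fibroblast collagen, lay between 1070 and 1267 FPKM in CTR and reached 685 FPKM in dKO. In bulk RNA, fewer cells of a type and less RNA per cell cannot be told apart. Marker calls were made at an adjusted p under 0.05 in the limma test described below. Of all genes tested, 20.4% were called higher in dKO and 32.6% lower. Among the marker lists, 8 of 10 endothelial genes and 2 of 4 lymphatic endothelial genes were higher in dKO and none lower. Of 7 fibroblast genes tested, 4 were lower and 1, Dcn, higher. Macrophage genes were higher in 9 of 10 cases and lower in 1, Marco (both exceptions named after their values were seen). Mesothelial genes were higher in 5 of 6 cases, lung epithelial genes in 2 of 6, and smooth muscle and pericyte genes in 2 of 8. Both leukocyte genes tested were higher. The counts of 2 in 6 and 2 in 8 are near the 20.4% of all genes. No marker was at 0 in every library, although the T-cell gene Cd3e reached only 0.0140 FPKM.

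Of the 10 members, 8 had at least 1 FPKM in at least 6 of the 12 libraries and were tested on log2(FPKM + 1) with limma over 12467 genes. At an adjusted p under 0.05, 4 of the 8 differed between dKO and CTR MLECs. Igf1 was higher, and Igfbp3, Igfbp6 and Insr were lower. Such a difference was found in 53.1% of all genes tested (20.4% higher and 32.6% lower), so the number of members is close to that background. Scaling by median-of-ratios changed the split over all genes from 38.5% higher to 50.9% higher among those that differed. With an absolute log2 fold change over 1.5 as well, 1 member passed, Igfbp6, against 1.98% of all genes (1.43% higher and 0.553% lower). The groups did not overlap for 2 members, Igfbp3 and Igfbp6, both lower, against 27.4% of all genes (11.3% with dKO above and 16.1% with dKO below). The median log2 fold change of the 8 members was −0.52, and that of all genes tested was −0.10. Igf2 and Igfbp2 were below the limit and are given by their values.

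**Figure D1:**
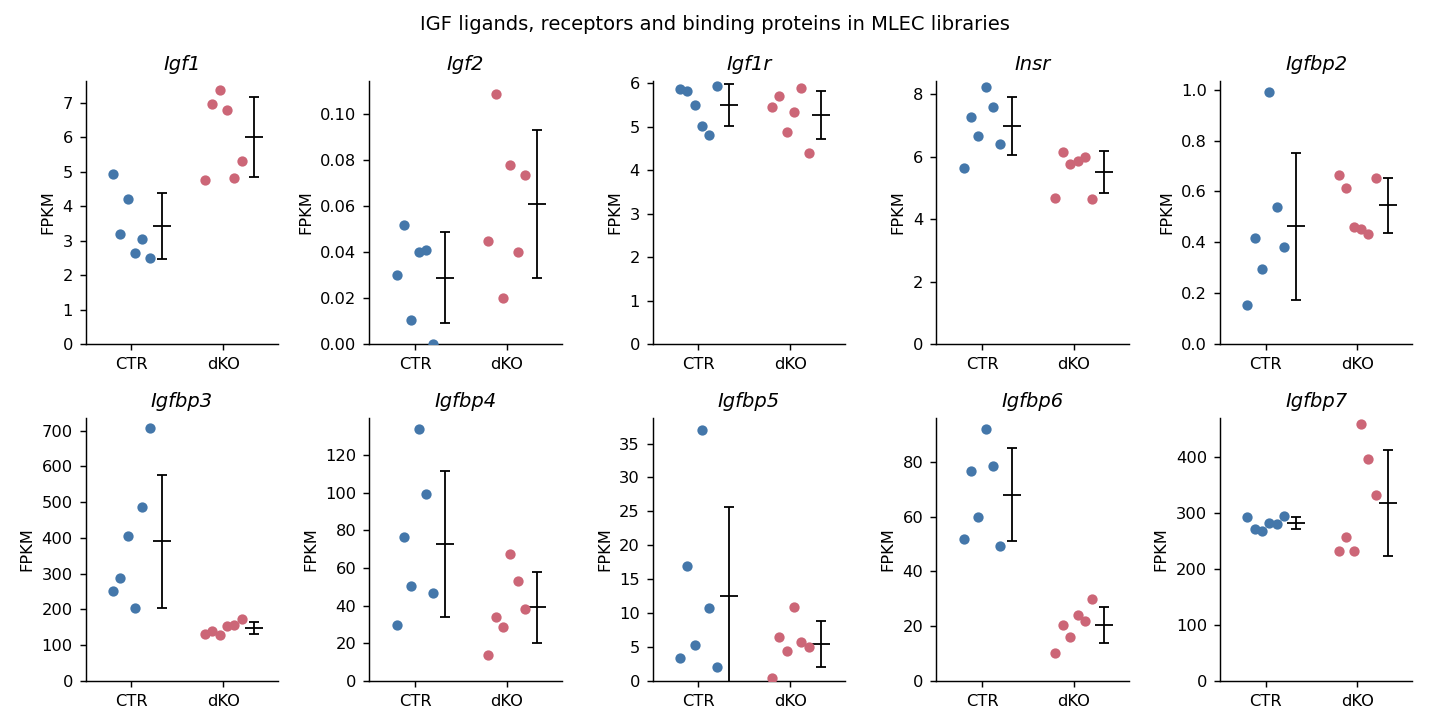
FPKM of the 10 IGF system genes in each library, with 6 CTR libraries (blue) and 6 dKO libraries (red) in replicate order from left to right, and the mean with its SD as a black bar (the lower bar of Igfbp5 in CTR is cut at 0). Each axis starts at 0. The groups separate fully for Igfbp3 and Igfbp6 and overlap for the other 8 genes.

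Igf1 (ENSMUSG00000020053, chr10:87693642-87772904, plus strand, GRCm39) encodes IGF-I, made in the lung mainly by mesenchymal cells and macrophages. In CTR libraries Igf1 lay between 2.51 and 4.93 FPKM with a median of 3.12. In dKO libraries it lay between 4.76 and 7.38 FPKM with a median of 6.05. Only CTR replicate 1, at 4.93 FPKM, reached into the dKO range, where it lay above replicates 1 and 5. The mean rose from 3.42 ± 0.95 to 6.0 ± 1.17 FPKM (SD, n = 6), a log2 fold change of 0.67 with a standard error of 0.14 (limma, adjusted p = 0.00184). Macrophage markers moved with it between the groups: their summed FPKM ran from 823 to 1371 in CTR and from 2399 to 5349 in dKO, and dKO replicate 3 was highest for both Igf1 and this sum. Most of this sum was Lyz2, with a mean of 746 FPKM in CTR and 1868 FPKM in dKO. The orders otherwise differed in dKO, where replicate 2 had the second highest Igf1 (6.96 FPKM) and the second lowest macrophage sum (2602). Among CTR libraries the order differed as well, since replicate 4 had the highest macrophage sum (1371) and the second lowest Igf1 (2.65 FPKM). The part of macrophages in the Igf1 difference was not tested.

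Igf2 (ENSMUSG00000048583, chr7:142204503-142220694, minus strand) encodes IGF-II, a fetal growth factor expressed from the paternal allele and mostly silent after birth in rodents. It was near the detection limit in all libraries, with 17 fragments over the 6 CTR libraries and 36 over the 6 dKO libraries. The FPKM ran from 0 to 0.0517 in CTR and from 0.0199 to 0.109 in dKO, and the groups overlapped. The library at 0, CTR replicate 6, allows up to 0.0308 FPKM at 3 fragments, counting error alone. A two-sided exact permutation test over the libraries gave p = 0.0606, unadjusted, so no difference in Igf2 was detectable at this depth.

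Igf1r (ENSMUSG00000005533, chr7:67601518-67883416, plus strand), the type 1 receptor, averaged 5.49 ± 0.48 FPKM in CTR cells, against 5.27 ± 0.55 FPKM in dKO cells (SD, n = 6 each). The ranges, 4.80 to 5.94 FPKM and 4.40 to 5.90 FPKM, overlapped nearly completely. The log2 fold change was −0.05, with a 95% interval from −0.21 to 0.11 (adjusted p = 0.594 from limma), and it was 0.03 with median-of-ratios scaling and 0.04 after quantile normalization. Pgpep1l, which shares bases with the last exon of Igf1r on the opposite strand, was between 1.02 and 15.5 FPKM, and without a stated strand setting fragments of the pair cannot be told apart.

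Insr (ENSMUSG00000005534, chr8:3172061-3329647, minus strand), the insulin receptor, was lower in dKO. It lay between 5.65 and 8.23 FPKM in CTR (median 6.97) and between 4.64 and 6.16 FPKM in dKO (median 5.81). Of the dKO libraries, replicates 1 and 6 were below every CTR library, and the other 4 lay in the lower part of the CTR range. The log2 fold change was −0.29 with a standard error of 0.09 (limma, adjusted p = 0.0189), and the dKO mean was 79.1% of the CTR mean in FPKM. With median-of-ratios scaling its adjusted p became 0.0910, and after quantile normalization 0.0770, so this difference depends on how libraries are scaled.

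Igfbp3 (ENSMUSG00000020427, chr11:7156086-7164179, minus strand), which encodes the main IGF carrier of blood plasma, was lower in every dKO library than in any CTR library. It lay between 205 and 707 FPKM in CTR, with a median of 347, and between 129 and 173 FPKM in dKO, with a median of 146. CTR libraries spread over 3.46-fold, with replicate 6 at the top and replicate 4 at the bottom, whereas dKO libraries spread over 1.34-fold. The log2 fold change was −1.28 with a standard error of 0.25 (limma, adjusted p = 0.000871), and the dKO mean was 37.6% of the CTR mean. Between 6387 and 37665 fragments stood behind each value, so counting error is small beside the spread between libraries.

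Igfbp6 (ENSMUSG00000023046, chr15:102052697-102057953, plus strand), which encodes a binding protein with a preference for IGF-II, fell the furthest of the members. It lay between 49.2 and 92.1 FPKM in CTR (median 68.2) and between 10.1 and 29.8 FPKM in dKO (median 21.3), with no overlap. The mean went from 68.0 ± 17.0 to 20.4 ± 6.73 FPKM (SD, n = 6), a log2 fold change of −1.72 with a standard error of 0.23 (limma, adjusted p = 5.45e-05). For Igfbp3 and Igfbp6 the two-sided exact permutation test gave p = 0.00216 each, unadjusted, the smallest that 6 libraries against 6 allow. Both calls held in all 24 alternative settings, with log2 fold changes from −1.45 to −1.09 for Igfbp3 and from −1.84 to −1.54 for Igfbp6. The summed FPKM of fibroblast markers lay between 2147 and 2715 in CTR and between 836 and 1669 in dKO, and most of it came from Col1a1, Col1a2 and Col3a1, which fell, as did Fbln1. Dcn rose, Pdgfra and Tcf21 did not pass the test, and Lum was too low to be tested (genes named after their values were seen). Igfbp6 in dKO replicate 1, at 10.1 FPKM, was the lowest of the 12 libraries, and so was that sum. In CTR, by contrast, Igfbp3 was highest in replicate 6 (707 FPKM), where that sum was the lowest but one (2191). Whether the fibroblast content takes part in the lower Igfbp3 and Igfbp6 was not tested.

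Igfbp4 (ENSMUSG00000017493, chr11:98932064-98945218, plus strand), an inhibitory binding protein cleaved by the protease pregnancy-associated plasma protein A, overlapped between the groups. It lay between 29.6 and 134 FPKM in CTR (median 63.5) and between 13.7 and 67.3 FPKM in dKO (median 36.1). CTR replicate 4 and dKO replicate 4 were the highest of their groups, and replicate 1 was the lowest in each. The log2 fold change was −0.86 with a 95% interval from −1.71 to −0.01, and the adjusted p was 0.0820 from limma. Leaving out CTR replicate 1 gave −1.08 (adjusted p = 0.0311), and leaving out dKO replicate 4 gave −1.04 (adjusted p = 0.0426).

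Igfbp5 (ENSMUSG00000026185, chr1:72897091-72914043, minus strand), a binding protein held in extracellular matrix, varied most among libraries. It ran from 2.09 to 36.9 FPKM in CTR (median 8.04) and from 0.483 to 10.96 FPKM in dKO (median 5.38). This is a spread of 17.6-fold within CTR and 22.7-fold within dKO, larger than the difference between the group medians. The log2 fold change was −0.76, with a 95% interval from −2.07 to 0.55 (adjusted p = 0.308 from limma), and the interval takes in changes in both directions. Without CTR replicate 4 the value was −0.35 and without dKO replicate 1 it was −0.38, neither called.

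Igfbp7 (ENSMUSG00000036256, chr5:77493130-77555931, minus strand) was the most abundant member over the 12 libraries, with 282 ± 10.7 FPKM in CTR and 318 ± 94.6 FPKM in dKO (SD, n = 6). CTR libraries stayed within 269 to 295 FPKM. The dKO libraries fell on both sides of that range: replicates 1, 2 and 3 were at 232, 257 and 232 FPKM, below all CTR libraries, and replicates 4, 5 and 6 were at 459, 397 and 332 FPKM, above all of them. The log2 fold change was 0.12 with a 95% interval from −0.22 to 0.46 (adjusted p = 0.523 from limma), and −0.01 after quantile normalization. The summed FPKM of endothelial markers was likewise higher in dKO replicates 4, 5 and 6 (409.5, 419 and 358) than in replicates 1, 2 and 3 (350.5, 326 and 301). The lymphatic endothelial sum split the same way, at 185.9, 217.4 and 122.4 against 121.7, 110.7 and 108.8. In both sums replicate 6 lay just above replicate 1. Between the groups the endothelial sum did not go with Igfbp7. The CTR endothelial sums (169 to 249) lay below every dKO sum, while CTR Igfbp7 lay above dKO replicates 1, 2 and 3. The part of endothelial content in the Igfbp7 values was not tested. Polr2b, between 17.4 and 23.4 FPKM, shares exon bases with Igfbp7 on the opposite strand.

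Igfbp2 (ENSMUSG00000039323, chr1:72863606-72891634, plus strand) was low throughout, between 5 and 32 fragments a library. It lay between 0.155 and 0.992 FPKM in CTR and between 0.433 and 0.663 FPKM in dKO, so the dKO range fell inside the CTR range. The two-sided exact permutation test gave p = 0.437, unadjusted, and at this depth no difference was detectable.

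**Figure D2:**
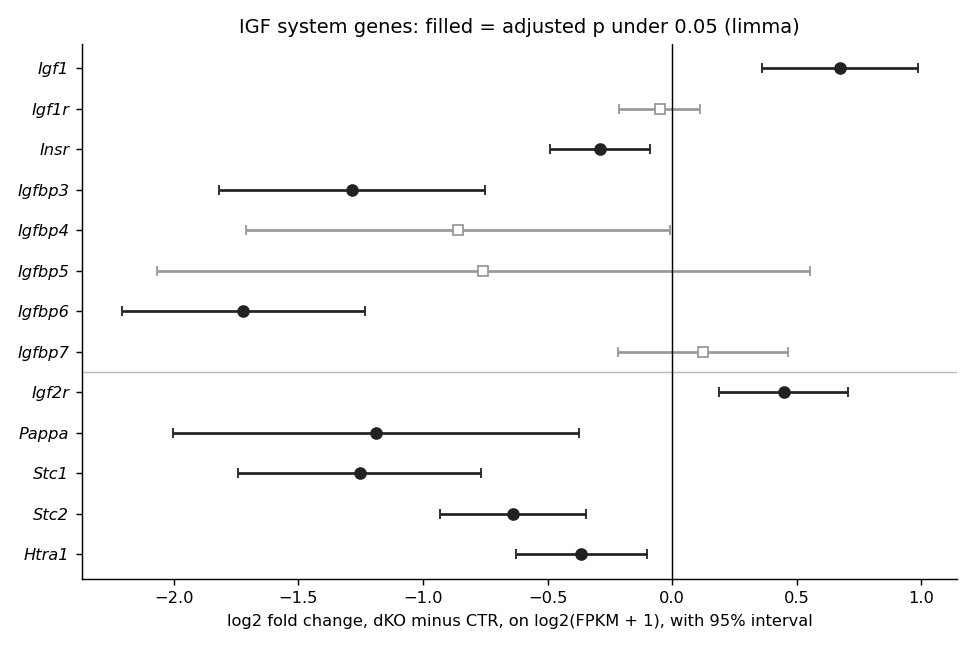
Log2 fold change (dKO minus CTR) on log2(FPKM + 1) with its 95% interval from limma, for the 8 tested members above the grey line and the 5 tested genes of the other extracellular IGF components below it. Filled circles have an adjusted p under 0.05 and open squares do not. Igf1 and Igf2r are the filled circles right of 0, and Igfbp6 lies furthest to the left at −1.72.

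The order of the members by mean FPKM was Igfbp3, Igfbp7, Igfbp4, Igfbp6, Igfbp5, Insr, Igf1r, Igf1, Igfbp2 and Igf2 in CTR. In dKO it was Igfbp7, Igfbp3, Igfbp4, Igfbp6, Igf1, Insr, Igfbp5, Igf1r, Igfbp2 and Igf2. In CTR the library ranges of Igfbp3 and Igfbp7 overlapped, as did those of Igfbp4 and Igfbp6 and of each neighbouring pair from Igfbp5 to Igf1. In dKO the ranges of Igfbp7 and Igfbp3 were apart, those of Igfbp4 and Igfbp6 overlapped, and so did each neighbouring pair from Igf1 to Igf1r.

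The makeup of the binding protein RNA differed with the groups. The FPKM of the 6 Igfbp genes summed to between 629 and 1101 in CTR and between 389 and 715 in dKO. Igfbp7 held 26.8% to 46.5% of this sum in CTR libraries and 56.3% to 64.2% in dKO libraries, with no overlap. Igfbp6 held 4.47% to 12.3% in CTR and 2.61% to 5.14% in dKO. Igfbp3 held 27.2% to 64.2% in CTR and 21.5% to 33.8% in dKO, where only CTR replicate 4 (27.2%) reached into the dKO range. These shares rest on the same values as the levels and were given no test.

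**Figure D3:**
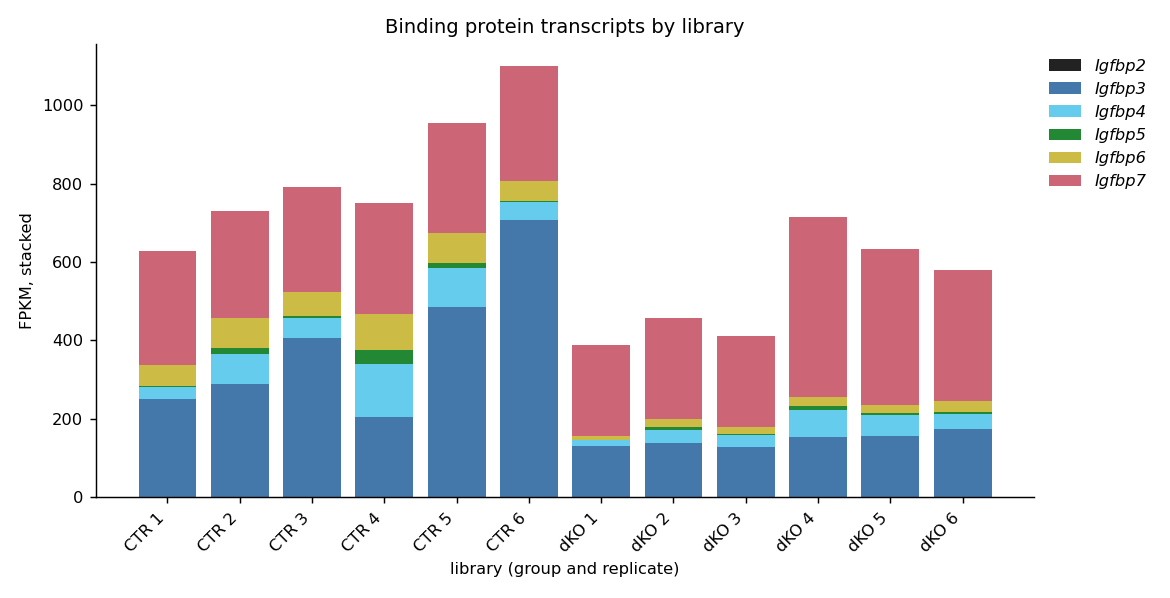
Stacked FPKM of Igfbp2 to Igfbp7 in each of the 12 libraries, with bars from 0 and the sum as the height of the bar. Igfbp3 (blue) shrinks in the dKO libraries, Igfbp7 (red) is the largest part of each of them, and the sum is highest in CTR replicate 6 at 1101 FPKM.

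The spread between libraries of a group was compared between members. Pearson correlations of log2(FPKM + 1) were computed for the 28 pairs of the 8 tested members in each group, 56 in all, with exact permutation tests. None had an adjusted p under 0.05, and 10 had an unadjusted p under 0.05. With 6 libraries the smallest exact permutation p is 0.00139, which for a single pair among 56 adjusts to 0.0778, so the design could not bring 1 pair alone below 0.05. The closest pair was Insr and Igfbp4 in CTR, with r = 0.996 (two-sided exact permutation p = 0.00139, adjusted p = 0.0778) and Spearman's rho = 1.00 (exact permutation p = 0.00278, adjusted p = 0.156, n = 6). Without the 2 libraries farthest from the median of Insr, r was 0.991. Igfbp5 and Igfbp6 in CTR followed with r = 0.97 (exact permutation p = 0.00278, adjusted p = 0.0778), rho = 0.943 (exact permutation p = 0.0167, adjusted p = 0.187) and r = 0.947 without the 2 libraries farthest from the median. In dKO the Insr and Igfbp4 correlation was 0.56 (exact permutation p = 0.268, adjusted p = 0.583). Whether the correlations differ between CTR and dKO was not tested. The CTR libraries had one order for Insr and Igfbp4, with replicate 1 lowest and then 6, 3, 2, 5 and 4. The summed endothelial markers, from 169 to 249 FPKM, had that order as well, and so did the summed lymphatic endothelial markers, from 86.2 to 160 FPKM, and the summed lung epithelial markers, from 107 to 501 FPKM. These lists were named after their order was seen. Most of the lymphatic endothelial sum was Lyve1, with a CTR mean of 104 FPKM. Sftpc, with a CTR mean of 180 FPKM, made up most of the lung epithelial sum. The fibroblast sum differed from that order only in replicates 4 and 5, and the remaining lists had other orders. Between the groups the endothelial sum went the other way, at 301 to 419 FPKM in dKO, where Insr was lower. The part of these cell types in the correlation was not tested.

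**Figure D4:**
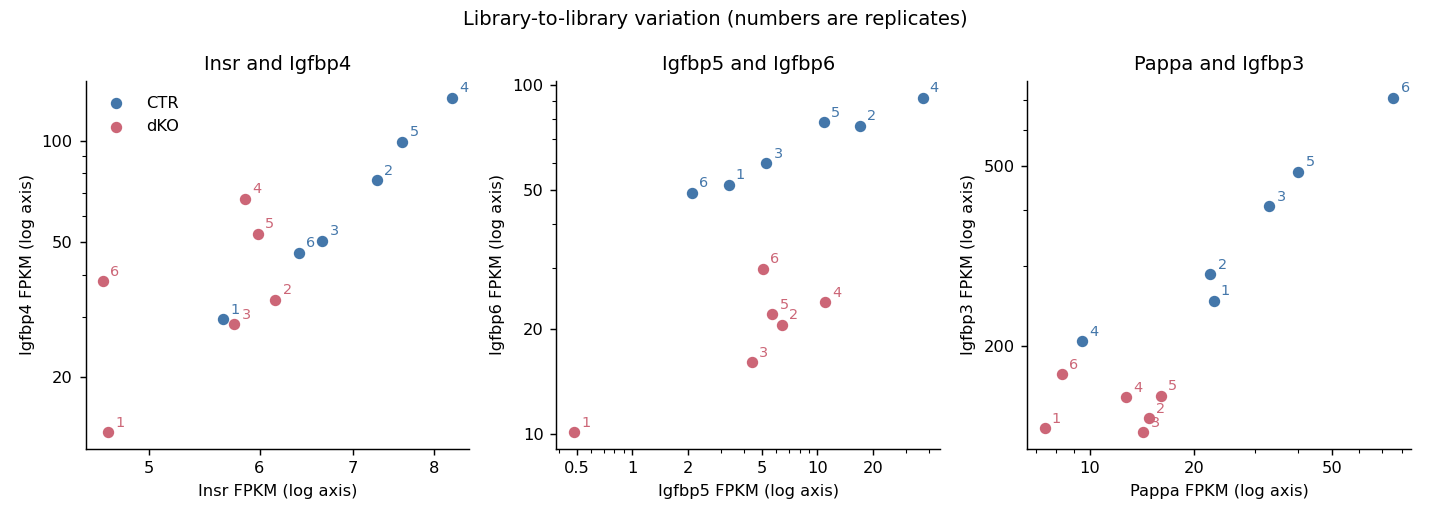
FPKM of gene pairs in the 12 libraries on log axes, with CTR in blue, dKO in red and the replicate number beside each point: Insr against Igfbp4 (left), Igfbp5 against Igfbp6 (middle) and Pappa against Igfbp3 (right). CTR libraries line up in each panel, and in the middle panel the dKO libraries lie lower at a similar Igfbp5 level.

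The likeness of other genes to 3 members was measured as Pearson's r of log2(FPKM + 1) over the 12 libraries. For Igfbp7 the closest were Ndufa4l2 (0.88), Rab12 (0.84) and Smad1 (0.84). This likeness came from the dKO libraries, where r was 0.93, 0.97 and 0.95, and not from CTR, where it was −0.16, −0.14 and −0.64. For Igf1 the closest were Cyfip1 (0.92), Ap2b1 (0.91) and Mgat5 (0.91), and their r was 0.97, 0.84 and 0.89 within CTR and 0.58, 0.68 and 0.67 within dKO. For Igfbp6 they were Sardh (0.99), Srpx (0.98) and Gtf2a2 (0.98), with r from 0.92 to 0.99 within CTR and from 0.86 to 0.96 within dKO. Values over 12 libraries include the difference between the groups, so those for Igf1 and Igfbp6 partly restate it. Each set of 3 was picked for the highest r among all tested genes in these same libraries. High values, also within a group, partly reflect that choice, and no chance level was computed.

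Of 12 other extracellular components of the IGF system, 9 had a row, 5 passed the limit on low values and all 5 differed between the groups, 1 higher and 4 lower in dKO, against 53.1% of all genes. Their median log2 fold change was −0.64. With median-of-ratios scaling 4 of the 5 differed, 1 higher and 3 lower, and the call lost was that of Htra1, which was also lost without dKO replicate 3 or 5. Pappa, the metalloprotease that cleaves IGFBP4, lay between 9.52 and 75.4 FPKM in CTR and between 7.40 and 16.0 FPKM in dKO, a log2 fold change of −1.19 (adjusted p = 0.0179 from limma). In CTR its libraries were ordered much like those of Igfbp3, with replicate 4 lowest and replicates 3, 5 and 6 highest. In dKO the orders differed, since replicate 6 was highest for Igfbp3 (173 FPKM) and second lowest for Pappa (8.30 FPKM). Stc1 and Stc2 encode stanniocalcins, secreted glycoproteins that inhibit this protease. Stc1 lay between 2.24 and 8.09 FPKM in CTR and between 0.949 and 2.49 FPKM in dKO, with a log2 fold change of −1.25 (adjusted p = 0.000539 from limma). Stc2 fell from 10.8 ± 2.97 to 6.38 ± 0.49 FPKM (SD, n = 6), and each dKO library was below each CTR library (adjusted p = 0.00167 from limma). Like Pappa, Stc2 in CTR had replicate 4 lowest and replicates 3, 5 and 6 highest. Htra1, a serine protease that can cleave binding proteins, had a log2 fold change of −0.36 (adjusted p = 0.0237 from limma). Igf2r, the mannose 6-phosphate receptor that removes IGF-II, was the component that rose, from 31.8 ± 5.47 to 43.5 ± 6.28 FPKM (SD, n = 6), and 5 of 6 dKO libraries lay above all CTR libraries. Htra1 and Igf2r, with smaller changes, were named after their values were seen. Igfals, Pappa2, Igfbpl1 and Insrr stayed below 0.3 FPKM in every library, and Ins1, Ins2 and Igfbp1 were not analysed here.

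Of 20 genes that act downstream of the receptors, all tested, 2 were higher in dKO, 2 were lower and 16 did not pass the test, with a median log2 fold change of 0.01. Of those that differed, Grb10, an adaptor that inhibits both receptors (−0.44), and the kinase Akt2 (−0.31) were lower, and the phosphatidylinositol 3-kinase subunit Pik3cb (0.38) was higher, with adjusted p between 0.000213 and 0.00986 from limma. These 3 were named after their values were seen. The receptor substrates Irs1 and Irs2, the kinases Akt1 and Mtor and the transcription factors Foxo1 and Foxo3, also named after their values were seen, were among those 16, with log2 fold changes between −0.14 and 0.25. A share of 4 in 20 is below the 53.1% of all genes, a description that was given no test.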

How the data were processed

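RNA of 12 MLEC libraries, 6 CTR and 6 dKO, was read as 150-base pairs. The deposited values are FPKM per gene, computed by the authors. Per the study's methods, reads were trimmed, aligned to mm39 with STAR and restricted to unique reads. The submitters' processing notes name Bowtie2 2.2.3, HISAT2 2.1.0, TopHat2 and DESeq2. The counting program, annotation and strand setting are not given in the sources used here.

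Groups came from the labels. The table columns headed CTR were matched to the control samples by name and number. Columns headed TAM were matched to the dKO samples by number and by elimination. That header does not state a genotype, and both groups received tamoxifen. Whole fragments were recovered from the FPKM steps for all 28689 genes (tolerance 0.01 fragments). Genes reaching 1 FPKM in 6 or more libraries were compared as log2(FPKM + 1) with limma 3.58.1 in R 4.3.3 (trend, Benjamini-Hochberg adjustment). A fold change on this scale understates changes of low genes. The call was an adjusted p under 0.05. Means carry the SD over libraries. Permutation tests were exact and two-sided, with 924 arrangements of the libraries, or 720 pairings for correlations. Counting limits cover counting error only. The limma analysis was tested on simulated data. No libraries appeared to be duplicates. Alternatives were another pseudocount, filter, scaling or test, recovered counts and leaving out each library. Positions, exon overlaps and promoters came from GENCODE vM39 on GRCm39, in which 27706 table genes were found.

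Members and gene lists were chosen with earlier results of these data known. All members were named. A list gene was named if called with an absolute log2 fold change of at least 0.58 or if below the limit on low values. For the member with the highest mean and those with the highest and lowest log2 fold change, the 3 most correlated genes were named. The values of 1 gene of the downstream list are not reported here. Other software was Python 3.11.15, NumPy 2.4.6, pandas 2.3.3, SciPy 1.17.1, numba 0.67.0 and Matplotlib 3.10.9.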

Additional observations from a re-analysis of the deposited data

How the results depend on the processing

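Igfbp3 and Igfbp6 kept their direction and their call in all 24 alternatives, and Igf1 in the 23 that tested it. Insr was no longer called after quantile normalization or with median-of-ratios scaling (−0.21 for both). Igf1r, not called in any setting, turned to 0.036 after quantile normalization and 0.026 with median-of-ratios scaling, and Igfbp7, also never called, turned to −0.012 after quantile normalization. The replicate numbers were not taken to pair the libraries: deviations of same-numbered libraries correlated between −0.11 and 0.57, above 0.1 for 3 of 6 numbers, and 2 of 6 CTR libraries correlated best with their own number. With the replicate number as a block, Igfbp4 was called at −0.86 (adjusted p = 0.000411 from limma). Without CTR replicate 1 it was called at −1.08 and without dKO replicate 4 at −1.04. Over all genes, a limit of 5 FPKM left 7891 genes and 4222 calls. The count past a log2 fold change of 1.5 in size went from 247 to 486 with a pseudocount of 0.1, 525 with 0.01, 387 on TPM and 516 with limma-voom on recovered fragments. The cause was not tested.

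Leaving out 1 library at a time gave 5858 to 6841 genes called, 231 to 265 past 1.5, and 4 to 5 members called. Log2 fold changes ran from 0.61 to 0.76 for Igf1, −0.34 to −0.25 for Insr, −0.08 to −0.01 for Igf1r, −1.44 to −1.09 for Igfbp3, −1.08 to −0.60 for Igfbp4, −1.08 to −0.35 for Igfbp5, −1.84 to −1.54 for Igfbp6 and 0.01 to 0.20 for Igfbp7. Of the extracellular list, 4 to 5 genes were called, and of the downstream list 3 to 4. Depth limits Igf2 and Igfbp2, with at most 11 and 32 fragments a library.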

Other observations

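Genes tied to Igf2 RNA were also measured. H19, the maternally expressed non-coding RNA beside Igf2, lay between 3.75 and 18.0 FPKM in CTR and between 1.92 and 6.13 FPKM in dKO, with the highest value in CTR replicate 1. It was lower in dKO by a log2 fold change of −0.91 with a standard error of 0.31 (limma, adjusted p = 0.0246). Igf2bp2, which encodes an RNA-binding protein of the IGF2 mRNA-binding family, fell from 22.3 ± 1.73 to 14.3 ± 1.84 FPKM (SD, n = 6), with no overlap between the groups (limma, adjusted p = 8.58e-05). The related Igf2bp1 and Igf2bp3 were low, with 187 and 230 fragments over the CTR libraries and 411 and 451 over the dKO libraries, and were not tested.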
